A study of Mus musculus with 4 samples.

Results

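The start and the end of cardiac differentiation from mouse pluripotent stem cells were compared on 2 arrays, M+CMs at day 10.5 against Flk1+ MPCs at day 4.5. These are 2 of the 4 arrays of the series, chosen by their titles, with 1 array per population and no replicates, so that every difference below is one between a pair of arrays and carries no test. Flk1+ MPCs are mesodermal precursor cells, sorted for the receptor Flk1 after mouse pluripotent stem cells had been kept without leukemia inhibitory factor (LIF), which holds such cells undifferentiated. M+CMs are cardiomyocytes positive for αMHC, the α-myosin heavy chain, which the labels call mature and which the study describes as derived from PCBs. PCBs are cardioblasts that the study defines as positive for the receptor PDGFRα and negative for Flk1, and sfPCBs are PCBs that formed spontaneously. The study's αMHC reporter line, the embryonic stem cell line EMG7, carries green fluorescent protein under the αMHC promoter, and this reporter marks cells in which that promoter is active, so that Myh6, which encodes αMHC, and Kdr, which encodes Flk1, belong to the choice of the cells. The study induced Flk1+ MPCs on gelatin up to day 4.5, and plated them on OP9 stromal feeder cells or on gelatin only after the sort. The labels give neither the support used after the sort nor the number of cultures behind an array. CsAYTE, a mixture of 4 small molecules, namely Cyclosporin A, Y27632 against ROCK, Trolox against oxidation and EW7197 against ALK5, preceded the PCB array of day 5.5 and was absent from that of sfPCBs at day 5.5, and the label of M+CMs does not say whether it was used. Values of both day 5.5 arrays are given beside the pair compared, and 4 values in a row are always in the order Flk1+ MPCs, sfPCBs, PCBs and M+CMs. All 4 arrays lay on 1 slide.

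Heart muscle arises from mesoderm that leaves the primitive streak under Wnt, Nodal and FGF signals and passes through a stage at which Mesp1 and Eomes are active. Precursors positive for Flk1 can give rise to endothelium, blood and muscle. Cardiomyocytes then assemble sarcomeres, store calcium in the sarcoplasmic reticulum, draw most of their ATP from mitochondria, and slow their division.

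The arrays measured total RNA in 1 colour. Each held 43020 spots that were not controls, for 39429 probes. The software called between 73.3% and 76.2% of the spots of an array well above background, and no spot was saturated. The deposited spot intensities, with the background subtracted by the scanner software, were scaled to a common 75th percentile, and the resulting number is called the scaled signal. A gene was detected where at least 1 of its probes was well above background. Probes differ in how strongly they bind, so a scaled signal is compared between arrays for 1 gene and not between genes. Of 21271 genes with a RefSeq identifier, 17610 were detected in at least 1 of the 2 arrays. Both arrays detected 15820 of them, 1018 were detected in M+CMs and not in Flk1+ MPCs, 772 in Flk1+ MPCs and not in M+CMs, and 3661 were detected in neither. Where a gene was not above background in 1 array, the ratio is a lower bound, written as at least so many fold. The error given with a log2 ratio is that of the scanner software. That error takes in the spot with its local background and says nothing of the spread between cultures.

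The median log2 ratio of all genes compared was -0.03, so higher and lower genes were about equally frequent under this scaling. At least 30-fold higher in M+CMs were 352 genes (2.0% of those compared), and 190 (1.08%) were at least 30-fold lower. At least 2-fold, 3840 genes (21.8%) were higher and 3785 (21.5%) were lower. The counts of every list below are to be read against these shares. The lists were chosen with earlier results of these data known, so an excess over the shares is a description and no independent support. The 352 genes gained had a median scaled signal of 48.8 at day 4.5, 176.0 in sfPCBs, 625.4 in PCBs and 4832.4 at day 10.5. Of these, 252 were measured in both arrays and 100 had a bound. Flk1+ MPCs thus held most of the gained genes at a low signal above background. The 190 genes lost had medians of 5001.7, 2011.3, 669.5 and 56.5 in the same order, and 150 of them were still above background in M+CMs. After 2 errors were subtracted, 252 gained and 113 lost genes stayed at 30-fold or more. Of the genes gained, 69 (19.6%) were members of the lists of filament, Z-disc, calcium, channel and muscle metabolism genes, which held 138 genes compared. Of the genes lost, 20 (10.5%) came from the 37 genes of the primitive streak list. At the threshold, the last 3 genes counted as gained had ratios of at most 30.2 and the next 3 below it 29.6 to 29.9. On the side of the losses the ratios were 30.3 to 30.4 inside it and 29.5 to 29.9 outside. In bulk samples like these, fewer cells of a type and less RNA per cell cannot be told apart.

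**Figure D1:**
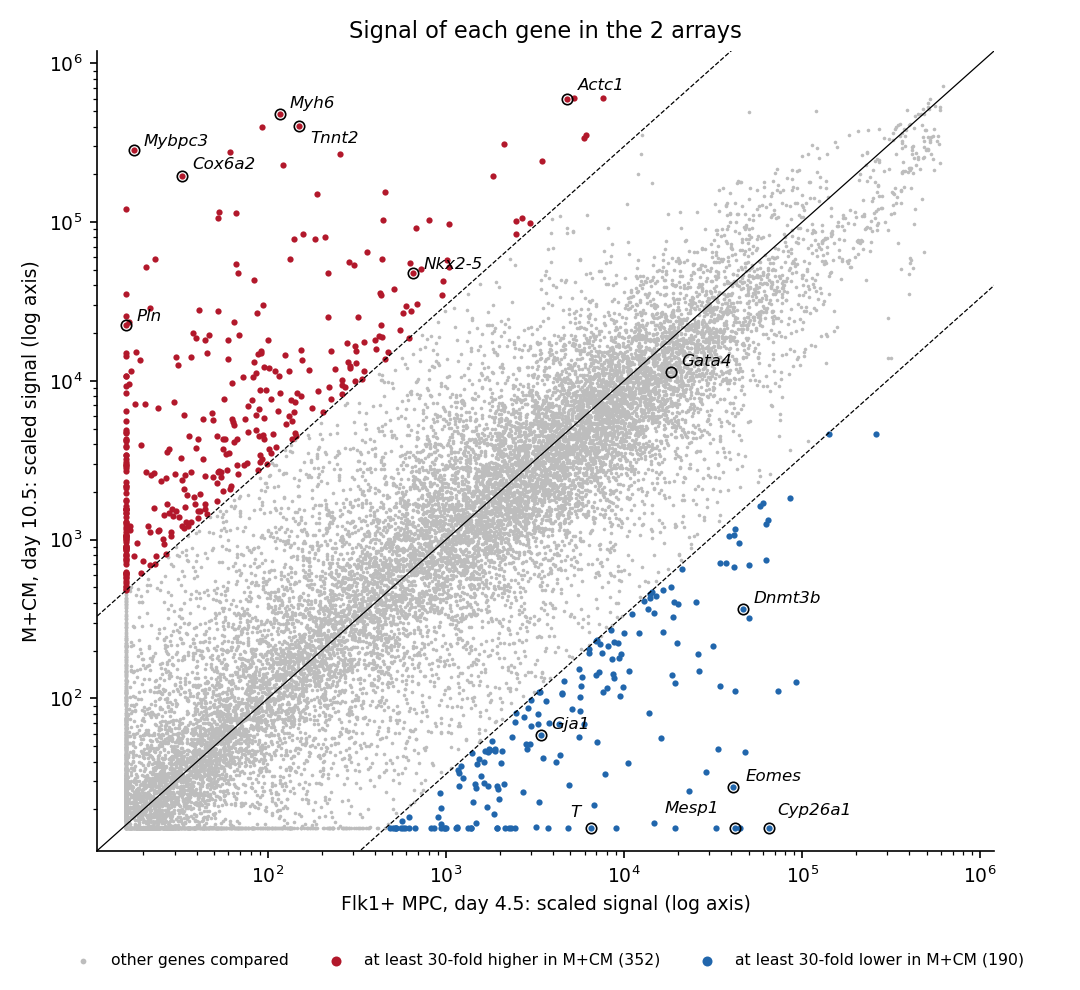
Scaled signal of each of 17610 genes in Flk1+ MPCs (horizontal, log axis) and M+CMs (vertical, log axis), with 352 genes at least 30-fold higher in M+CMs in red and 190 at least 30-fold lower in blue. The solid line marks equal signals and the dashed lines a 30-fold ratio; signals not above background are drawn at the lowest signal of that array that was above it, or at their own value if higher, which gives the straight edges. Gata4 lies near the solid line and Mybpc3 and Cyp26a1 lie at opposite corners.

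The markers of both populations were checked first. Each of the 10 cardiomyocyte markers had a ratio of 2 or more in M+CMs, 9 of them at least 30-fold, with a median log2 ratio of 8.25. Their summed scaled signal was 12263 at day 4.5, 9864 in sfPCBs, 577620 in PCBs and 2182336 at day 10.5. Myh6, which belongs to the choice of the cells, is 1 of the 10 and made up 478626.8 of the last sum. The smallest ratio of the 10 was that of Nppa, the gene of atrial natriuretic peptide. Genes known from the adult heart were mixed in M+CMs. Tnni3, its troponin I, was at 105985.0, Myl2, a light chain of the ventricle, at 113949.3 and Pln, phospholamban, at 22371.6. Ckm, the muscle creatine kinase, was at 79.2, Casq2, the calcium buffer calsequestrin, at 85.6 and Kcnj2, the channel of the resting potential, at 57.0. The lowest signal above background in that array was 15.3. For the precursors, 7 of 9 markers were at least 2-fold lower in M+CMs and 4 at least 30-fold lower, and the summed signal was 137700, 59354, 22868 and 15470. Mesp1, T and Etv2 were among the 4. Lmo2 and Kdr were not lower by 2-fold on the probe used. Kdr had 2 probes that disagreed. On the probe used, which was the brighter over the 4 arrays, Kdr had 11262.6 at day 4.5, 6660.6 in sfPCBs, 7272.5 in PCBs and 7498.6 at day 10.5. On the other probe it had 54864.4, 4559.1, 767.8 and 2126.2, a log2 ratio of -4.69 in place of -0.59. The gene by which the precursors were sorted was therefore highest in Flk1+ MPCs on both probes, and how far it was lower later depended on the probe. The study defines PCBs as negative for Flk1 on the cell surface. The probe used still had 7272.5 in PCBs, against 767.8 on the other, and which probe follows Kdr better was not tested.

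The thick and thin filaments, whose sliding shortens the sarcomere, showed the highest median of the 18 gene lists. Of 23 genes, 20 were 2-fold or more higher in M+CMs, 17 of them at least 30-fold, and none was 2-fold lower, with a median log2 ratio of 8.35. Mybpc3, the cardiac myosin binding protein, had 17.6 at day 4.5, which was not above background, 51.3 in sfPCBs, 21227.5 in PCBs and 283146.1 at day 10.5, and was at least 16119-fold higher. Ttn, the giant spring protein titin, had 3.6, again not above background, 191.6, 13454.6 and 120586.3, and was at least 7563-fold higher. Both were below detection in the precursors, dim in sfPCBs and bright in PCBs and M+CMs.

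Among the myosin chains, Myh6 had 116.3 at day 4.5, 128.0 in sfPCBs, 82856.8 in PCBs and 478626.8 at day 10.5, with a log2 ratio of 12.01 (error 0.21). Myh7, the β-myosin heavy chain, had 122.2, 525.5, 235857.2 and 228989.6, a log2 ratio of 10.87 (error 0.21). Myh6 was highest in M+CMs, whereas Myh7 was at the same signal in PCBs and M+CMs within the error. The light chain of slow muscle and ventricle, Myl3, had 92.2, 76.2, 68633.3 and 397276.5, and its log2 ratio was 12.07. Myl2, the regulatory light chain of the ventricle, had 66.3, 16.5, 3149.7 and 113949.3, with the value of sfPCBs not above background, and M+CMs were far above PCBs. The light chains of the atrium were already far above background in the precursors. Myl7 had 6095.4 at day 4.5, 588.2 in sfPCBs, 119770.6 in PCBs and 353286.0 at day 10.5. Myl4 had 7600.1, 7786.6, 244632.4 and 602695.6, so that the log2 ratios of Myl7 (5.86) and Myl4 (6.31) were smaller than those of the ventricular ones although M+CMs were high in all 4.

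The troponins, which couple calcium to the filament, differed in timing. Tnnt2, cardiac troponin T, had 150.2 at day 4.5, 3175.7 in sfPCBs, 145594.9 in PCBs and 403180.4 at day 10.5 (log2 ratio 11.39, error 0.21). Tnni3, the adult cardiac troponin I, had 52.5, 64.1, 227.6 and 105985.0. Tnni1, the slow skeletal form that the fetal heart uses, had 189.8, 7549.4, 76569.9 and 150983.7. Tnni1 was thus already far above its precursor level at day 5.5, and most of the difference in Tnni3 lay after that day. Both forms of troponin I were present together in M+CMs. Actc1, cardiac α-actin, had 4786.4, 4732.6, 203316.8 and 598465.6, with a log2 ratio of 6.97. Tpm1, a tropomyosin, was measured by 5 probes that did not move together: 2 probes of 1 transcript had log2 ratios of 3.29 and 3.10, and probes of 3 other transcripts had 0.06, -1.76 and -3.80. Tpm2, Lmod2 and Neb, the gene of nebulin, did not reach a 2-fold ratio, and Lmod2, a leiomodin of the heart, was barely above background in M+CMs, at 20.7.

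Promoter windows of genes from this group are printed because they carry the letters that serum response factor and MEF2 proteins are known to bind in muscle genes. The bases are those from 110 to 1 before the RefSeq start, from RefSeq on GRCm38.p6, in lower case, with the CArG box in capitals:
Actc1 (chr2:114052876-114052985, minus strand): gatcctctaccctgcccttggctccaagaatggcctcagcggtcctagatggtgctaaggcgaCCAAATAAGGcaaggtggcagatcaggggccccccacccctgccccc
Acta1 (chr8:123894776-123894885, minus strand): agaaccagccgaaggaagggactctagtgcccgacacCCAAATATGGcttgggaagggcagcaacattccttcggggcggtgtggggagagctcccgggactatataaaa
Myl3 (chr9:110763568-110763677, plus strand): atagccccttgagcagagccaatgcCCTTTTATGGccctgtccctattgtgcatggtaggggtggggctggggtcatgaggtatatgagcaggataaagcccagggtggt
Myl7 (chr11:5898783-5898892, minus strand): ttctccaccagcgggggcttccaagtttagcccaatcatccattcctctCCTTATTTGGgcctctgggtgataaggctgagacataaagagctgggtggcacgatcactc
The boxes began 47 bases before the start in Actc1, 73 in Acta1, the skeletal α-actin, 85 in Myl3 and 61 in Myl7. In the next set, the MEF2 site is in capitals, for Mybpc3, for Myoz2, a Z-disc protein, and for Pgam2, the muscle phosphoglycerate mutase, and it began 90, 33 and 80 bases before the start:
Mybpc3 (chr2:91118034-91118143, plus strand): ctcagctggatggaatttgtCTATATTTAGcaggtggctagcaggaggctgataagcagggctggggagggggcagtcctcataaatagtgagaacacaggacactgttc
Myoz2 (chr3:123034988-123035097, minus strand): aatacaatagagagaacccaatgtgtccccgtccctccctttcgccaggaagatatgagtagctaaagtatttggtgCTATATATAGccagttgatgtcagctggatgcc
Pgam2 (chr11:5803797-5803906, minus strand): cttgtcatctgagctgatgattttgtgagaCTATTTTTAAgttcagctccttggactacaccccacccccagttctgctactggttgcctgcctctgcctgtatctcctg
Over windows of 250 bases before to 50 after the start, and on both strands, a CArG box was present in 4.62% of 346 promoters of the gained genes, of which 256 of 352 had a promoter in the table, against 1.47% of the 17054 promoters of all genes compared and 1.63% of all 32851 promoters. A MEF2 site was present in 7.51%, 1.99% and 3.19% of the same sets. In the filament list 5 of 28 promoters (17.9%) held a CArG box, the ones printed and that of Nebl, and 2 (7.14%) a MEF2 site. TATAAA, which overlaps some MEF2 sites, was present in 14.2% of the promoters of gained genes, 9.51% of those of genes compared and 13.6% of all promoters, so that the gained genes were close to the last of these. The site that TEAD proteins are known to bind, CATTCC, was present in 20.8%, 13.0% and 14.7% of the same sets and in 39.3% of the promoters of the filament list. The GATA site AGATAA was present in 9.25% of the promoters of gained genes, above the 7.98% of genes compared and below the 11.2% of all promoters, and in 21.4% of those of the filament list (6 of 28). A match of letters is a description of the sequence and does not say that a factor was bound.

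The Z-disc, the M-band and the desmin filaments hold neighbouring sarcomeres in register. Of 29 genes of this list detected in either array, 25 were 2-fold or more higher in M+CMs, 17 at least 30-fold, and 1 was 2-fold lower, with a median log2 ratio of 6.20. Csrp3, the muscle LIM protein, had 23.1 at day 4.5, which was not above background, 108.2 in sfPCBs, 1441.6 in PCBs and 58448.7 at day 10.5. Ldb3, which binds α-actinin at the Z-disc, had 20.6, 44.3, 5556.6 and 51874.9 (log2 ratio 11.30, error 0.34), and its other probe gave 6.21. Both were dim in sfPCBs as in the precursors. Ankrd1, a stress-responsive titin partner, had 66.0, 8549.3, 1338.8 and 54705.8, and Fhl2, a LIM protein of the heart, had 983.6, 9036.1, 3840.7 and 27532.6. These genes were higher in sfPCBs than in PCBs, unlike the filament genes above. Cmya5 had a log2 ratio of 0.13 on the probe used and of at least 6.53 on its other probe. Pdlim3 was the gene that was 2-fold lower, at 10928.0 at day 4.5 and 5118.4 at day 10.5. Xirp2 and Myom3 were detected in neither array.

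In calcium handling, 22 of 26 genes were at least 2-fold higher and 15 at least 30-fold, and the median log2 ratio was 5.24. Pln, phospholamban, which restrains the calcium pump, had 4.6 in Flk1+ MPCs and 4.4 in sfPCBs, neither above background, 149.1 in PCBs and 22371.6 in M+CMs, and was at least 1403-fold higher. Atp2a2, the calcium pump itself, had 1824.8, 2082.6, 14041.9 and 196481.4 (log2 ratio 6.75). Ryr2, the calcium release channel of the heart, had 38.0, 227.2, 2224.3 and 19949.6. The pump was present in the precursors, while its inhibitor and the release channel were not above background or barely so. Of the calcium channels of the membrane, Cacna1h, of the T type, had 725.6, 509.2, 653.9 and 50820.7, whereas Cacna1c, of the L type, had 39.0, 13.2, 49.7 and 210.0. A second probe of Cacna1h gave a log2 ratio of 1.11 in place of 6.13. Casq2 was at 57.2 at day 4.5 and 85.6 at day 10.5, and Jph1, a junctophilin of skeletal muscle, was the gene lower by 2-fold, at 151.0 and 61.2.

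The ion channels were more mixed. Of 31 genes, 22 were at least 2-fold higher, 6 at least 30-fold, and 1 was at least 30-fold lower, with a median log2 ratio of 2.52. Popdc2, a cAMP-binding membrane protein of the conduction system, had 52.8 at day 4.5, 4209.4 in sfPCBs, 24374.1 in PCBs and 115760.6 at day 10.5. Kcnh2, the potassium channel that ends the action potential, had 48.9, 199.4, 1419.3 and 5707.5. Hcn4, the main pacemaker channel, was dim, at 97.1 in M+CMs. Gja1, the connexin that joins working cardiomyocytes, had 3414.4 at day 4.5, 2162.5 in sfPCBs, 1199.1 in PCBs and 59.0 at day 10.5, a log2 ratio of -5.86 (error 0.22) on its 1 probe. In a separate experiment the study reported less mRNA of connexin43, which Gja1 encodes, in PCBs than in M+CMs, the reverse of this probe. Gja5, the connexin of atrium and conduction system, had 27.4, 23.7, 17.8 and 467.0, although its other probe gave a log2 ratio of -0.09.

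Of the natriuretic peptides and other heart hormones, 7 of 8 genes detected were at least 2-fold higher, but 1 only reached 30-fold, and that was Corin, the protease that activates atrial natriuretic peptide, with 10.4 in Flk1+ MPCs, not above background, and 1160.1 in M+CMs. Nppa had 59.2, 79.6, 182.1 and 494.8, and Nppb 43.1, 248.4, 109.3 and 183.1. Nppa was thus highest in M+CMs and Nppb in sfPCBs. Nppc and the receptor Npr1 were detected in neither array.

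**Figure D2:**
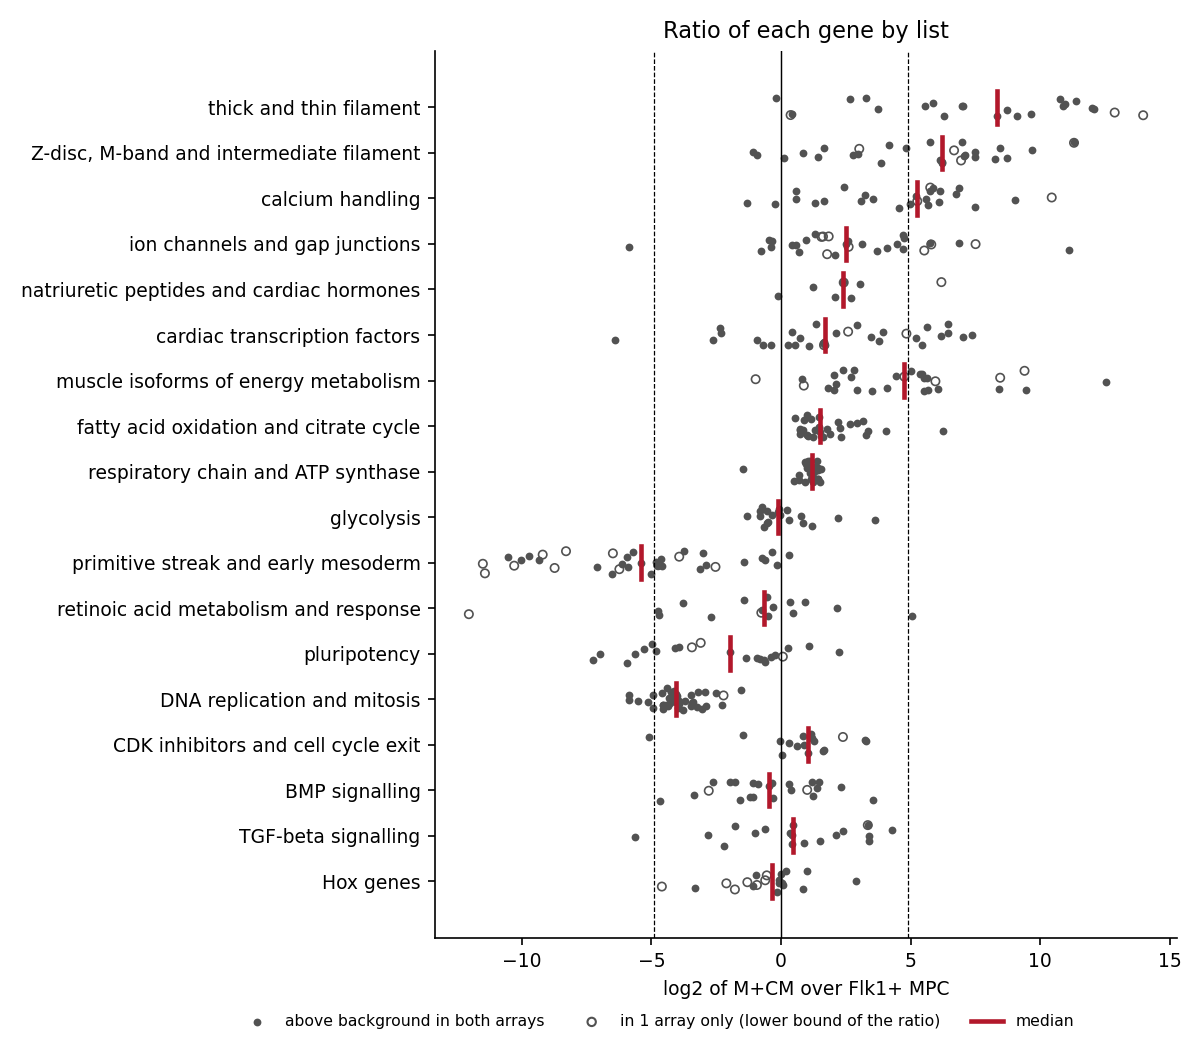
Log2 ratio of M+CMs over Flk1+ MPCs for each gene of 18 lists detected in at least 1 of the arrays. Points are genes, open where the gene's probe was above background in 1 array only, so that the value is a lower bound of the ratio; red bars are medians and dashed lines a 30-fold ratio. The medians run from 8.35 for the filament genes to -5.42 for the primitive streak genes.

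Transcription factors of the heart differed less than the muscle genes. Of 32 factors, 21 were 2-fold or more higher in M+CMs and 4 at least 2-fold lower, 8 and 1 at 30-fold, with a median log2 ratio of 1.68. Nkx2-5, the homeobox factor of the early heart, had 656.7 at day 4.5, 590.8 in sfPCBs, 9016.3 in PCBs and 47780.2 at day 10.5 (log2 ratio 6.19). Tbx5, a T-box factor of the heart field, had 687.3, 396.5, 2759.4 and 30264.7 (log2 ratio 5.46). Hopx, a cofactor of the differentiating cardiomyocyte, had 87.8, 88.8, 732.6 and 14726.8 (log2 ratio 7.39). These factors were at most as high in sfPCBs as in Flk1+ MPCs, within the error, and highest in M+CMs. Myocd, the coactivator of serum response factor, had 155.9, 983.8, 16718.7 and 13450.1, and Mef2c, a MEF2 protein, had 19.8, 201.0, 1616.1 and 729.0. Both peaked in PCBs. Isl1, of the second heart field, and Meis1 did so too, at 7022.6 and 27910.7 in PCBs against 4013.4 and 17460.9 in M+CMs. In a separate experiment the study reported lower mRNA levels of Isl1 and Meis1 in PCBs than in M+CMs, the reverse of these signals.

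Other heart factors were far above background in the precursors already. Gata4 had 18271.0 at day 4.5, 6172.5 in sfPCBs, 8058.1 in PCBs and 11337.8 at day 10.5, and Gata6 13923.8, 6023.0, 16617.2 and 42458.4. Gata4 was thus highest in Flk1+ MPCs and Gata6 in M+CMs. Tbx3, a T-box repressor, had 51182.0, 7982.1, 2768.2 and 10115.2, and Hand1, a basic helix-loop-helix factor of early mesoderm, 16150.6, 25334.4, 4015.1 and 2651.3.

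**Figure D3:**
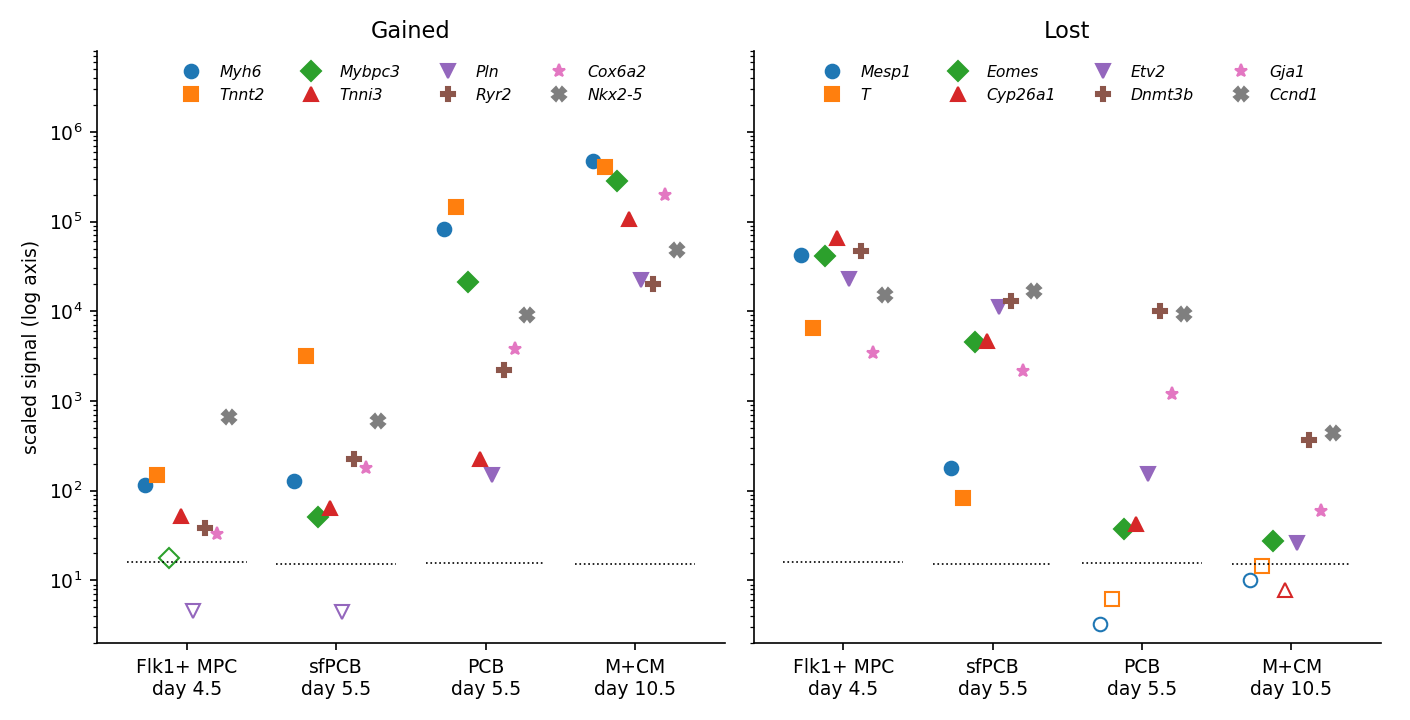
Scaled signal (log axis) of 8 gained genes (left) and 8 lost genes (right) in the 4 arrays, 1 point per array. Open symbols were not above background and dotted lines mark the lowest signal above it. Of the gained genes, Tnni3 and Pln were still at 227.6 and 149.1 in PCBs, and of the lost genes Dnmt3b, Ccnd1 and Gja1 were still at 10128.1, 9376.9 and 1199.1 there. Gja1 rests on 1 probe, and the study's own mRNA measurement ranked PCBs below M+CMs.

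Energy metabolism was higher in M+CMs in 3 layers that differed in size. The muscle isoforms had a median log2 ratio of 4.76, with 26 of 29 genes at least 2-fold higher and 14 at least 30-fold. Cox6a2, the heart and muscle subunit of cytochrome c oxidase, had 32.8 at day 4.5, 177.3 in sfPCBs, 3773.8 in PCBs and 196237.6 at day 10.5, and its log2 ratio of 12.55 (error 0.25) was the largest of all genes detected in both arrays. Cox8b, another muscle subunit, was not above background in Flk1+ MPCs (9.8) or sfPCBs, barely so in PCBs (18.2), and at 10753.3 in M+CMs. Mb, myoglobin, had 3.7, 17.9, 17.2 and 5614.8, with the values of Flk1+ MPCs and PCBs not above background. Cox8b and Mb were still near the background at day 5.5. Ppargc1a, the coactivator of mitochondrial biogenesis, had 19.1, 23.3, 927.3 and 13534.1 (log2 ratio 9.47). Its partner receptors were higher too, Esrrg with a log2 ratio of 6.07 and Esrra with 2.38. The muscle creatine kinases, Ckm and Ckmt2, which buffer ATP in the adult heart, were dim. Whether their probes bind weakly was not tested. They were at 79.2 and 29.3 in M+CMs. The lowest signal above background in that array was 15.3.

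The enzymes of fatty acid oxidation and of the citrate cycle, which every tissue carries, had 22 of 30 genes at least 2-fold higher, none 2-fold lower, and a median log2 ratio of 1.49. Cpt1a, the gate of fatty acids into mitochondria, was the 1 gene past 30-fold, at 74.1 at day 4.5, 1472.7 in sfPCBs, 1813.8 in PCBs and 5726.5 at day 10.5. Acaa2, the last enzyme of the β-oxidation spiral, had 11977.5, 14770.7, 24914.2 and 200908.1. In the respiratory chain and ATP synthase, 22 of 29 genes were at least 2-fold higher and 1 was 2-fold lower, and the median log2 ratio was 1.18. Apart from Atp5c1, the 28 genes lay between 0.50 and 1.55, a narrow band. Atp5c1 had -1.47 on the probe used and 0.63 on its other probe. At day 5.5 the same list had medians of -0.38 in sfPCBs and -0.24 in PCBs against Flk1+ MPCs, so that the higher signal appeared with M+CMs.

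Glycolysis did not follow. Its 19 genes had a median log2 ratio of -0.11, with 3 at least 2-fold higher and 1 lower, shares of 15.8% and 5.3% below those of all genes. Hk1, the hexokinase bound to mitochondria, had 10350.5 at day 4.5, 14170.6 in sfPCBs, 9454.7 in PCBs and 129311.8 at day 10.5 (log2 ratio 3.64). Slc2a3, a glucose transporter of embryonic cells, was the 1 lower gene, with a log2 ratio of -1.32. The list as a whole was lower at day 5.5, with medians of -1.29 in sfPCBs and -1.47 in PCBs. Pgk1, phosphoglycerate kinase, had 334954.9, 88597.8, 78878.9 and 267064.3, and Slc16a3, the exporter of lactate, 146231.0, 17903.5, 22038.9 and 87880.7. Both were high at the ends of the series and low between them, so that a comparison of M+CMs with Flk1+ MPCs alone does not show the dip.

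**Figure D4:**
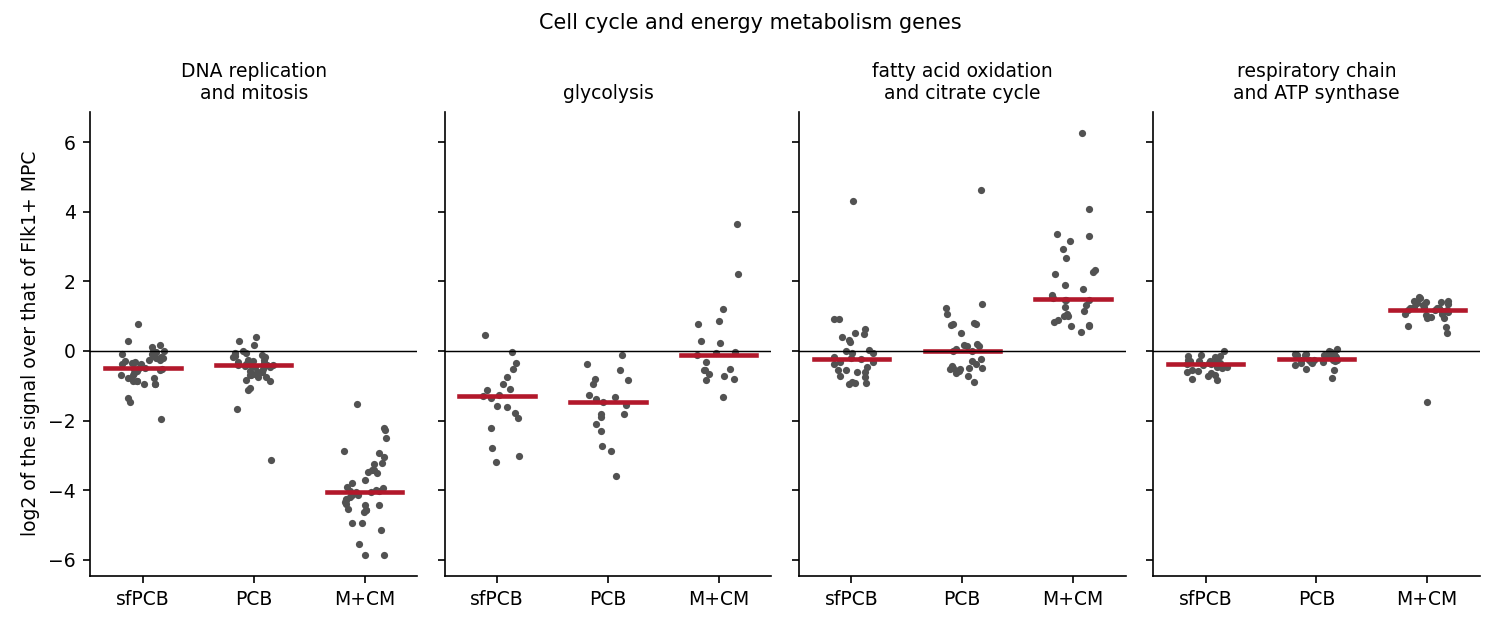
Log2 of the signal over that of Flk1+ MPCs for each gene of 4 lists in sfPCBs, PCBs and M+CMs, all against the 1 array of Flk1+ MPCs; points are genes and red bars medians. Cell cycle genes have medians of -0.48 and -0.41 at day 5.5 and -4.06 in M+CMs, glycolysis is low at day 5.5 (-1.29 and -1.47) and near 0 in M+CMs (-0.11), and the oxidative lists are high in M+CMs (1.49 and 1.18).

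All 41 genes of DNA replication and mitosis were at least 2-fold lower in M+CMs, 6 of them at least 30-fold, with a median log2 ratio of -4.06. The medians of this list at day 5.5 were -0.48 in sfPCBs and -0.41 in PCBs. Mcm5, a subunit of the helicase that opens DNA for replication, had 44110.3 at day 4.5, 24272.4 in sfPCBs, 28806.7 in PCBs and 949.1 at day 10.5 (log2 ratio -5.54). Bub1, a kinase of the spindle checkpoint, had 18899.3, 6847.6, 5923.3 and 327.4 (log2 ratio -5.85). Mki67, the proliferation marker Ki-67, had 36048.3, 36157.7, 32058.2 and 3799.7 (log2 ratio -3.25). For these genes the lowest value was that of M+CMs, and on the log2 scale the values of day 5.5 lay closer to the precursors. Since 40 of the 41 genes were still above background in M+CMs, the cell cycle genes were low there and, with the exception of Ccne2, measurable. Cell cycle genes that are not in the list also lay next to the 30-fold threshold. Cenph, a kinetochore protein, was just inside it at 30.3-fold, and the mitotic kinase Melk just outside at 29.9-fold.

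Promoters of this group are printed for a pair of motifs known from cell cycle genes, CCAAT, bound by NF-Y, and TTTGAA, the core of the cell cycle homology region. Matches to either, on both strands, are in capitals within the 110 bases before the start, and the window of Ccnb2 holds CCAAT only:
Cdk1 (chr10:69352913-69353022, minus strand): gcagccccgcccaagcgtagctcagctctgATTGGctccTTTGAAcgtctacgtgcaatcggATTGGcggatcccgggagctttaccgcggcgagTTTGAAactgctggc
Ccnb2 (chr9:70421555-70421664, minus strand): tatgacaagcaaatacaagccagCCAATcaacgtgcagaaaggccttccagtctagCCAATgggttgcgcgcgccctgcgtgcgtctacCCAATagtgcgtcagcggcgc
Cdc20 (chr4:118437344-118437453, minus strand): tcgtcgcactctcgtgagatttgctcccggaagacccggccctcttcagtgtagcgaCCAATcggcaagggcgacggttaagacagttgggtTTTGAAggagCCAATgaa
Cdk1, the kinase that drives mitosis, held 4 matches, Ccnb2, a cyclin of that kinase, 3, and Cdc20, the activator of the ligase that ends mitosis, 3. Over the windows of 300 bases, CCAAT was present in 24 of 32 promoters of the list (75%), against 37.6% of those of all genes compared and 37.4% of all promoters, and TTTGAA in 12 (37.5%), against 13.0% and 17.9%. In the genes lost 30-fold as a whole these shares were 42.4% and 16.5%.

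The list of CDK inhibitors and of genes of cell cycle exit also held the D cyclins, which drive the cycle, and had a median log2 ratio of 1.04. Of its 17 genes, 9 were at least 2-fold higher, none of them a D cyclin, and 2 were at least 2-fold lower, Ccnd1 and the pocket protein Rbl1. Cdkn1c, a CDK inhibitor of the embryo, had 160.0 at day 4.5, 1186.4 in sfPCBs, 1017.5 in PCBs and 1546.7 at day 10.5, and Rbl2, a pocket protein of resting cells, 66.4, 86.8, 95.2 and 635.0. Cdkn2a and Cdkn2b, the inhibitors of the Ink4 locus, were high at day 5.5 alone, with 44.8, 4161.1, 3220.0 and 45.8 for Cdkn2a. The part of feeder or stromal RNA in these day 5.5 values was not tested. Ccnd1, cyclin D1, had 15127.5, 16714.1, 9376.9 and 439.0, a log2 ratio of -5.11, whereas Ccnd2 was at 13387.9 at day 4.5 and 13088.8 at day 10.5.

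The programme of the primitive streak was the mirror image of the muscle genes. Of 37 genes detected, 32 were at least 2-fold lower in M+CMs, 20 at least 30-fold, and none was 2-fold higher, with a median log2 ratio of -5.42. Mesp1, the factor at the entry of the cardiac lineage, had 42204.4 at day 4.5, 178.5 in sfPCBs, 3.3 in PCBs and 10.2 at day 10.5, the last 2 values not above background, and was at least 2755-fold lower. T, brachyury, had 6554.2, 82.0, 6.2 and 14.5. Eomes, its T-box relative, had 41053.7, 4554.3, 37.8 and 27.6 (log2 ratio -10.54, error 0.26). Mesp1 had left the level of the precursors by day 5.5 in both conditions, and Eomes kept an intermediate signal in sfPCBs only.

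Evx1 (44790.3 in Flk1+ MPCs), Gsc (19299.3) and Mixl1 (4836.6), homeobox factors of the streak, and Wnt3 (8993.6), the ligand that starts it, were not above background in M+CMs. Evx1 was at least 2924-fold lower, Gsc at least 1260-fold, Wnt3 at least 587-fold and Mixl1 at least 316-fold. The Wnt targets Sp5 and Dkk1 had 47601.6 and 28990.7 in the precursors and 45.8 and 34.4 in M+CMs. Nodal, the ligand of mesoderm induction, had 8675.1, 7381.6, 160.6 and 143.3, and Lefty2, its inhibitor, 25873.7, 864.9, 95.7 and 190.4. Nodal stayed at the precursor level in sfPCBs and not in PCBs. Ifitm1, a membrane protein of the streak, had 73335.5, 14285.8, 14442.4 and 111.9. Tdgf1, the Nodal coreceptor, gave -0.33 on the probe used but -9.26 on 1 other probe and a bound of -8.58 on another, so its place among the genes within 2-fold rests on 1 probe. Rspo3, Wnt5a, Msgn1 and Ripply2 were also within 2-fold, and Wnt3a and Cdx4 were detected in neither array.

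Cyp26a1, the enzyme that degrades retinoic acid, had 64999.4 at day 4.5, 4657.7 in sfPCBs, 42.1 in PCBs and 7.9 at day 10.5, which was not above background, and was at least 4243-fold lower. Its ratio is a bound, as are those of Evx1 and Mesp1, so the order of these losses is not known. The retinoic acid receptor Rarb had the opposite course, with 142.4, 399.9, 2254.2 and 4701.6 (log2 ratio 5.05). Of the 16 genes of this pathway, 6 were at least 2-fold lower and 2 at least 2-fold higher. The binding protein Crabp1 had a log2 ratio of -4.71, and Aldh1a2, the synthesizing enzyme of the mesoderm, had 395.8, 57.1, 35.8 and 234.9.

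Genes of the pluripotent state were lower in part. Of 23 detected, 13 were at least 2-fold lower, 6 at least 30-fold, and 2 were at least 2-fold higher. Nanog is counted among the higher ones on the probe used only. Dnmt3b, a de novo DNA methyltransferase, had 46836.1 at day 4.5, 12884.7 in sfPCBs, 10128.1 in PCBs and 366.3 at day 10.5 (log2 ratio -7.00). Lin28a, which blocks the microRNA let-7, had 41647.0, 20061.3, 20839.5 and 672.8 (log2 ratio -5.95), and Sall4 19252.2, 3794.5, 3610.8 and 125.6 (log2 ratio -7.26, with -3.90 and -0.89 on its other probes). Pou5f1, which encodes Oct4, had 896.7, 71.6, 12.9 and 18.0. Sox2 had 166.8, 876.7, 216.7 and 8.5, the last not above background. Nanog had 2 probes with opposite ratios, 2.22 on the probe used and -5.21 on the other, so no direction is given for it.

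Among the largest losses outside the lists of streak, retinoic acid and pluripotency genes, Etv2, the master factor of blood and endothelium, had 23065.7, 11261.6, 152.6 and 26.0 (log2 ratio -9.79). Six2 and Otx2, homeobox factors, had 33554.2 and 41939.9 in Flk1+ MPCs and 48.2 and 111.6 in M+CMs. Zscan10, a zinc finger factor of embryonic stem cells, had 10504.3 and 39.4. All of these were already lower in both populations of day 5.5. Mogat2, an acyltransferase of triglyceride synthesis, had 92485.6, 22738.8, 8054.3 and 127.1. Krt8, a keratin, had 16120.1, 34772.9, 7761.1 and 56.1, and Alpl, alkaline phosphatase, 7824.1, 670.4, 949.6 and 33.2. Krt8 was thus highest in sfPCBs, and Alpl was low by day 5.5. Il17rd, an inhibitor of FGF signalling, had 26311.5 and 147.8 in Flk1+ MPCs and M+CMs, and Tes, a protein of focal adhesions, 14791.2 and 16.5. Cd40, a receptor of immune cells, had 6757.3 and 21.3, and Grrp1 34686.4 and 119.9. Vrtn (32949.4), Klk8 (3738.3) and Optc (3194.9) were bright in Flk1+ MPCs and not above background in M+CMs.

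Gains outside the lists had muscle and non-muscle members. Asb2, a ubiquitin ligase subunit that targets filamins, had 15.4 in Flk1+ MPCs, not above background, 17.4 in sfPCBs, 6286.3 in PCBs and 35448.2 at day 10.5. Cav3, the caveolin of muscle, had 3.7 and 9.9, neither above background, then 90.5 and 25760.7. Mhrt, a noncoding RNA of the Myh7 locus, had 21.9, 15.2, 700.6 and 28612.5, with the first 2 not above background. Cav3 was late and Asb2 early, both at least 1616-fold higher in M+CMs. Sh3bgr, a small protein of the heart, had 254.5, 1517.7, 55249.3 and 267153.2, and Rcsd1, which binds actin capping protein, 67.6, 2094.4, 25727.4 and 47475.3. Tecrl, a membrane enzyme linked to inherited arrhythmia, and Txlnb, a taxilin of muscle, had 15002.2 and 14438.7 in M+CMs and were not above background in Flk1+ MPCs. Grhl1, an epithelial transcription factor, was also detected in M+CMs and not in the precursors, at 23368.3 against 16.5.

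Markers of other cell types were measured in the same arrays. Skeletal muscle factors were absent or dim: Myog and Myf5 were not above background in either array, Myod1 was not in M+CMs, and the adult fast myosins Myh1, Myh2 and Myh4 were detected in neither. Myh8, the perinatal myosin, had 61.5, 47.5, 29628.5 and 278294.6, and Myl1 69.0, 7.7, 6242.4 and 19467.0. These 2 and Tnnt1 were the 3 of 13 skeletal genes past 30-fold, and the summed signal of the list was 2450 at day 4.5 and 353968 at day 10.5. The myosin heavy chains are close copies of each other, the other Myh8 probe was at 7.6 and 2721.5, and whether the bright probe also binds Myh6 or Myh7 was not tested. Smooth muscle genes were higher in 7 of 10 cases, 3 at least 30-fold, with Acta2, smooth muscle α-actin, at 2125.2, 124535.6, 191817.5 and 312113.8. Acta2 was bright from day 5.5 on.

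The fibroblast and stroma list had 16 of 22 genes at least 2-fold higher in M+CMs and 4 lower, and its summed signal was 443225 at day 4.5, 930347 in sfPCBs, 651228 in PCBs and 340559 at day 10.5. Its level was therefore highest at day 5.5. Col1a2, a fibrillar collagen, had 779.9, 175055.7, 109297.8 and 18307.3, and Col3a1 25.1, 15635.9, 3119.6 and 2338.3. Fn1, fibronectin, had 314177.9, 162503.2, 161970.1 and 13847.8, and its 1 signal made up the larger part of the sum of Flk1+ MPCs, so that the lower sum in M+CMs rests on Fn1 while the median log2 ratio of the list was 1.81. Dpt, of the same list, was detected in neither array. Genes of OP9 feeders and fat were at 5986, 65872, 63433 and 13497 in sum, with 7 of 13 genes at least 2-fold higher and 2 lower. Angpt1 and Vcam1 were the 2 of them past 30-fold, and Fabp4 had 102.0, 7958.1, 23663.1 and 383.8. Prg4 was above background at day 5.5 alone. The part of feeder or stromal RNA in the gained genes was not tested. Vcam1, a marker of cardiac cells as well, had 5.2, not above background, 2305.0, 1492.4 and 4204.2, and was higher in M+CMs than at day 5.5, unlike most of the stromal genes named here.

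Endothelial genes went with the precursors, with 14 of 22 at least 2-fold lower in M+CMs and 2 higher, and the summed signal was 64639 and 14498 in Flk1+ MPCs and M+CMs. Flt1, a VEGF receptor, had 4017.0, 3573.2, 263.3 and 248.7. Cdh5, the cadherin of endothelium, had 36.2, 986.6, 6.5 and 3.3, and was not above background in PCBs and M+CMs. Cdh5, Cd34 and Tek were highest in sfPCBs. Of the blood genes, 9 of 17 were at least 2-fold lower and none 2-fold higher, and Tal1 had 612.1, 480.2, 56.2 and 40.7. Macrophage genes were low throughout, with a summed signal of 1929 to 2766 over the 4 arrays, and Lyz2, C1qa and C1qc were in neither array above background. In the endoderm list 7 of 14 genes were at least 2-fold lower and 2 higher, with Foxa2 at 923.8, 236.6, 56.9 and 25.3. Among epicardial genes, 6 of 9 were at least 2-fold higher and 2 lower, but the summed signal was lower in M+CMs, at 2857 against 10353, and the median log2 ratio of 1.66 was -0.75 over the genes detected in both arrays. Of the neural genes, Pax6 (at least 66.2-fold higher) and Elavl3 (log2 ratio 5.46) were past 30-fold, 1 gene, Stmn2, was at least 30-fold lower, and the sum was 5440 and 6625 in Flk1+ MPCs and M+CMs.

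**Figure D5:**
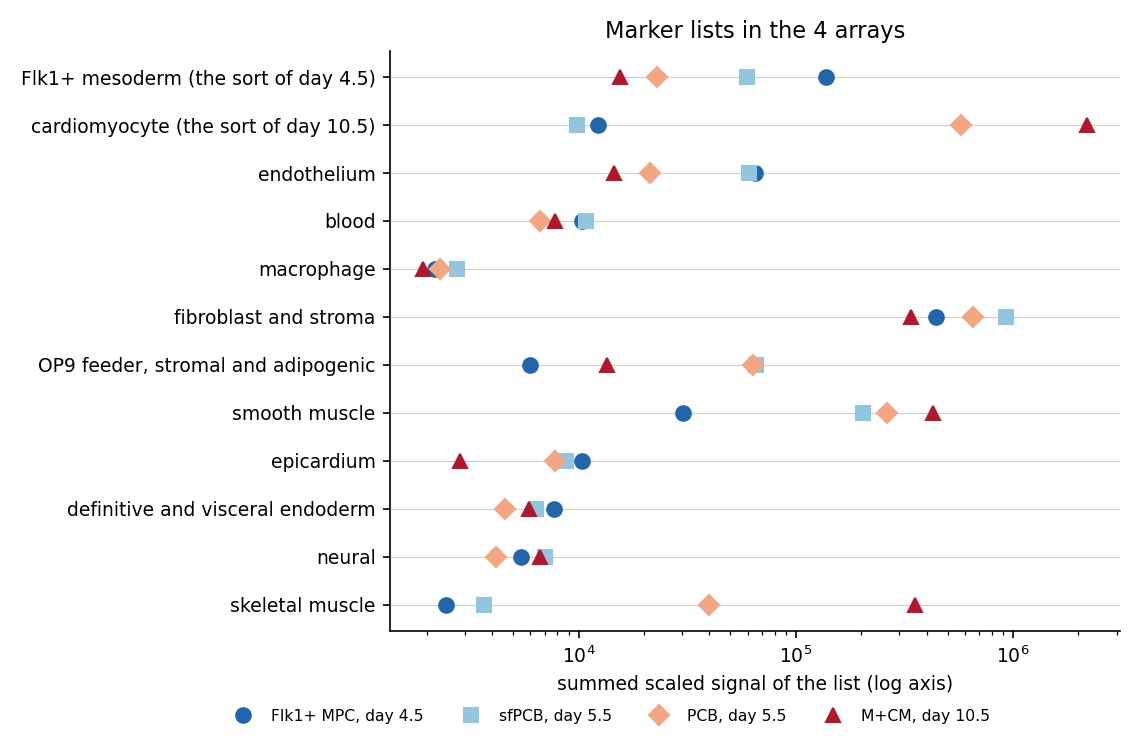
Summed scaled signal (log axis) of 12 marker lists in the 4 arrays, 1 symbol per array. Cardiomyocyte genes are highest in M+CMs (2182336) and precursor genes in Flk1+ MPCs (137700), while the fibroblast list and the feeder list are highest at day 5.5 (930347 and 65872 in sfPCBs).

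Signals that act on heart mesoderm were also compared. Of all genes compared, 21.8% were at least 2-fold higher and 21.5% lower. Of the BMP genes, 7 of 23 (30.4%) were 2-fold or more higher in M+CMs and 10 (43.5%) lower, none by 30-fold. Bmp4, the ligand that induces mesoderm, had 99348.5 at day 4.5, 58732.3 in sfPCBs, 63449.2 in PCBs and 46408.0 at day 10.5, and Bmp2 12592.2, 6117.7, 8718.2 and 2020.0. Among the targets, Id2 had 2025.7, 9890.4, 32427.0 and 23801.3 and Msx1 23706.2, 3465.2, 1325.8 and 939.8. Targets of 1 pathway thus stood on opposite sides. In the TGF-β list 8 of 19 genes (42.1%) were at least 2-fold higher and 4 (21.1%) lower, the latter at the share of all genes. The ligand Tgfb2 had 2143.1, 21191.3, 32868.4 and 22838.9, whereas Tgfb1 had 2322.7, 1115.2, 449.3 and 330.9. Fst, follistatin, which binds activins, was the 1 gene past 30-fold, at 6942.4 at day 4.5 and 141.3 at day 10.5. Of 20 Hox genes detected, 2 were at least 2-fold higher and 6 lower, with Hoxb4 at 432.7 and 3193.6 and Hoxd1 at 371.4 and 6.2, the last not above background.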

How the data were processed

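Total RNA of 4 populations was measured on 1-colour arrays, 1 per population, and groups were taken from the sample titles. The deposited intensities of the spots, written by Feature Extraction 11.5.1.1, were background-subtracted and not normalized between arrays, with software errors and detection flags, and a value table that holds the log2 of the unscaled signal (99.8% of entries within 0.001). Per the file headers the design is on mm9. Control and outlier spots were left out, the arrays were scaled to a 75th percentile of 2198.4, and each gene (a RefSeq identifier joined by symbol, 20868 of 21271 named) took its probe with the highest mean log2 intensity. Detection needed 0.5 of a probe's spots. Signals below detection were raised to the array's lowest detected signal (15.1 to 15.9). With 1 array per population there was no test and no adjusted p, and the folds of 30 (the study's) and 2 describe size. Named were the 15 largest differences each way among genes detected in both arrays, the 10 brightest detected in 1 array only, and list members. The members and lists were chosen with earlier results of these data known. Promoters came from RefSeq on GRCm38.p6. Scaling, background correction, floor, offset, detection and probe choice were varied. The scripts, in Python 3.11.15, numpy 2.4.6, pandas 2.3.3, matplotlib 3.10.9, R 4.3.3 and limma 3.58.1, were tested on simulated data.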

Additional observations from a re-analysis of the deposited data

How the results depend on the processing

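Against 352 genes at least 30-fold higher in M+CMs and 190 lower, 195 and 84 were counted after normexp background correction and quantile normalization, and 215 and 101 with an offset of 50. Both compress ratios of dim signals by construction. With each unique probe counted, 6541 probes were 2-fold higher and 6537 lower, 2335 were detected in M+CMs only and 1561 in Flk1+ MPCs only, among 31539 compared. Scaling to the 75th percentile over probes detected on all arrays shifted the median log2 ratio of all genes by 0.16, and 4342 genes were then 2-fold higher and 3245 lower. The median of the epicardium list was 1.66 and reversed to -0.75 over genes detected in both arrays, a setting that gives no count of genes detected in 1 array only. Of 330 list medians recomputed under these settings, 284 moved by less than the tolerance, 39 moved toward 0, 6 away from 0 and 1 reversed. Of 450 ratios of named genes, 360 moved by less than the tolerance, 90 moved toward 0 and 0 reversed. Leaving out saturated spots could change nothing, since no spot was saturated, and it gave 30 of the 284 and 50 of the 360. The value table holds the same signal unscaled, and it gave a further 30 and 50. The share that did not move is therefore no measure of robustness. No paired analysis was possible because each population had 1 array, and leaving out a replicate or a block for the slide was not possible either, since all 4 arrays lay on 1 slide. Signal over background limits the sizes given as bounds, and 1 array per population leaves the spread between cultures unmeasured.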
